A study of Rattus norvegicus with 24 samples.

Results

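The hippocampal response to 7 days of growth hormone (GH) was read from 8 of the 24 rat arrays of the study. These were the 4 arrays titled for dw/dw rats given GH for 7 days and the 4 titled for dw/dw rats given saline over the same days, and they were chosen by title alone. Every rat came from the HsdOla:DWARF-dw-4 strain, and both of these groups were homozygous for the dwarf allele, dw. The GH rats received 300 µg GH subcutaneously from postnatal day 35 and the saline rats received subcutaneous saline, and all 8 were 42 days old when the hippocampus was taken. The labels give neither the sex of the rats, the source of the GH nor the number of injections. The study also held heterozygous rats (HZ) of 42 days given saline for 7 days, and GH, saline and HZ groups treated for 30 days. Each of the 6 groups held 4 animals, so the replicates were separate rats. The dw/dw rat keeps a low pituitary GH output, and it was 35 days old before the hormone was given.

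GH binds a cytokine receptor, GHR, which activates the kinase JAK2 and the transcription factors STAT5A and STAT5B. In liver and many other tissues STAT5 raises transcription of Igf1 and of the feedback inhibitors Socs2 and Cish, and much of the effect of GH on growth runs through insulin-like growth factor 1 (IGF-1), whose receptor IGF1R signals through IRS proteins, PI3K, AKT and mTOR. In the blood IGF-1 is carried by binding proteins, chiefly IGFBP3.

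Each value below is a normalized log2 signal of 1 probe on 1 array, or a log2 difference, GH minus saline, with the standard error (SE) of a limma model fitted to all 24 arrays. A log2 signal near 6.1 is close to background: Clic6, detected on 0 of the 24 arrays, averaged 6.03 in GH rats and 6.02 in saline rats. Differences are drawn towards 0 at that level. Probes with a detection p-value below 0.05 on 4 or more of the 24 arrays were tested, that is 11487 of 22226 probes. A gene was called where its p-value, adjusted by Benjamini-Hochberg over the 11487 probes, was under 0.05.

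Markers of hippocampal neurons were detected on both sides, which does not by itself identify the tissue. Neurod6, a transcription factor of forebrain excitatory neurons, averaged 10.04 ± 0.16 in GH rats and 10.11 ± 0.18 in saline rats (SD, n = 4 each). Calb1, the calbindin of dentate granule and CA1 cells, averaged 10.71 ± 0.05 in GH rats and 10.66 ± 0.14 in saline rats, and Wfs1, a CA1 marker, 7.72 ± 0.23 and 7.89 ± 0.21 (SD, n = 4 each). The dentate regulator Prox1 was detected on all 8 arrays but lay near background, at 6.18 ± 0.04 in GH rats and 6.19 ± 0.01 in saline rats (SD, n = 4 each). So did Fibcd1 of the pyramidal neuron list, at 6.21 ± 0.04 in GH rats and 6.24 ± 0.05 in saline rats (SD, n = 4 each). The share of probes detected was 45.6, 44.9, 45.9 and 46.6% on the GH arrays and 50, 47.9, 45.7 and 47.1% on the saline arrays. The mean Pearson correlation across probes was 0.9975 among GH arrays, 0.9968 among saline arrays and 0.9971 between the groups. On the first principal component, with 31% of the variance, saline replicate 3 and saline replicate 1 stood at opposite ends, at 0.747 and -0.46, and all 4 GH arrays lay between them. The second component, with 18.7% of the variance, came closer to the treatment groups: the GH arrays stood at 0.0994, -0.25, -0.144 and -0.663 and the saline arrays at 0.633, 0.247, 0.0743 and 0.00322, so that only GH replicate 1 lay within the saline range. All 8 arrays shared 1 slide, with the GH arrays at positions 5 to 8 and the saline arrays at positions 1 to 4, so treatment and the block of positions cannot be told apart. Where slide position is used below as a covariate, it is 1 linear term whose slope comes from arrays within groups. It cannot separate treatment from the block either.

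GH for 7 days left no gene past the threshold. In the limma fit 0 probes were called higher and 0 lower, and the lowest adjusted p was 0.347. At an unadjusted p under 0.05 there were 222 higher probes (1.93% of those tested) and 312 lower probes (2.72%), 534 in all (4.65%) against 574 that 5% of the tests would give. With median scaling in place of quantile normalization 133 were higher and 67 lower. All 4 GH arrays lay above all 4 saline arrays in 167 probes (1.45%) and below them in 191 (1.66%), and 49.3% of the differences were above 0. On the normalized scale the intervals were narrow for most probes. The median SE was 0.0402, and for 99.3% of the tested probes the whole 95% confidence interval of the difference lay within 0.5 on the log2 scale, for 93.6% within 0.3. These shares include dim probes, whose differences are drawn towards 0. For those a narrow interval does not bound the difference in RNA. Only 12 probes differed by more than 0.5 in either direction and 1 by more than 1. The genes below are therefore the ends of a distribution in which nothing was called, and their values are given as measured.

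**Figure D1:**
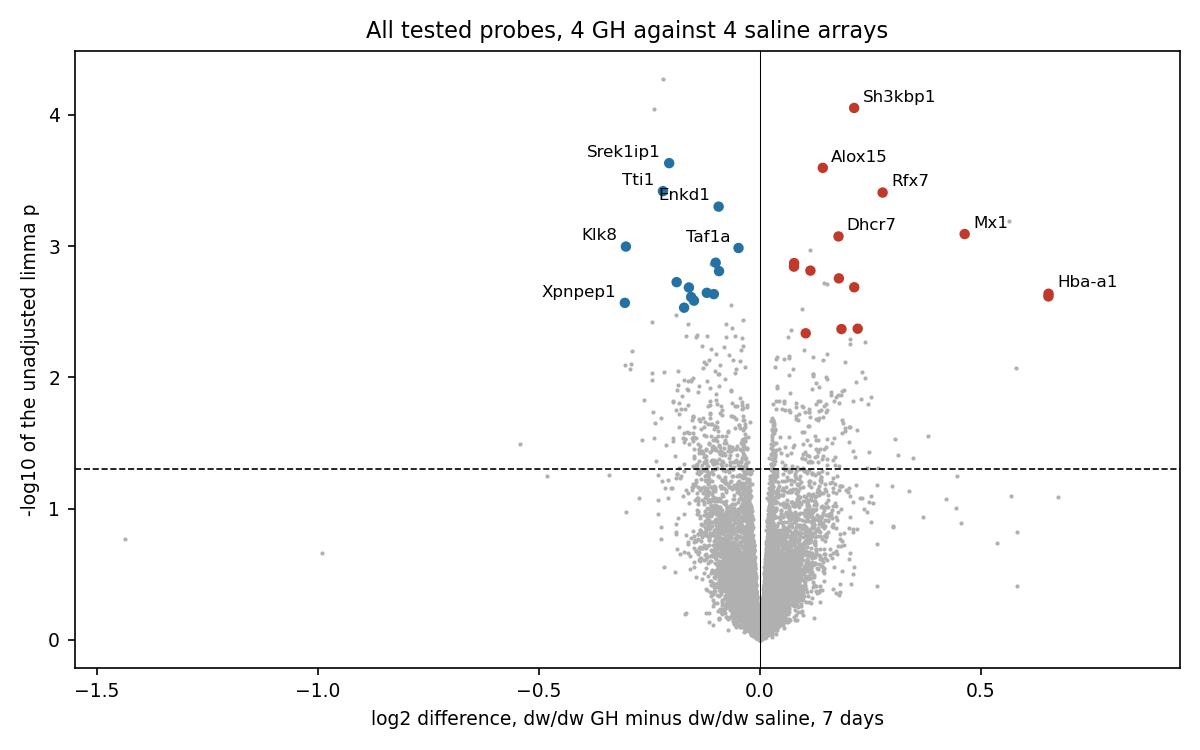
Each point is 1 of the 11487 tested probes, with its log2 difference (dw/dw GH minus dw/dw saline, 7 days) on the x axis and -log10 of its unadjusted limma p on the y axis. The dashed line marks an unadjusted p of 0.05, and the coloured points are the 15 higher (red) and 15 lower (blue) named genes with the smallest p. Most probes lie within 0.3 of 0, and the lowest adjusted p is 0.347.

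The genes through which GH and IGF-1 act were the first question, and none of those measured was called. Of 30 genes on the GH and IGF axis list, 28 had a named probe and 17 were tested. Of these 17, 9 differences were above 0 and 8 below, 0 had an unadjusted p under 0.05, against 4.92% of the 7983 named genes tested, and 0 had groups that did not overlap. Their median difference was 0.000124, beside -0.00123 over all named genes. Igf1 itself was not analysed here, since no probe was named for it.

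Cish, a STAT5 target and a feedback inhibitor of cytokine receptors, is shown by its promoter, because it is through STAT5 that GH is known to act on it. Its 250 bases before the transcription start are printed from RefSeq (build GRCr8), with the STAT motif TTCNNNGAA in capitals. The motif reads the same on both strands and its matches do not overlap.
Cish, chr8:116850719-116850968, plus strand: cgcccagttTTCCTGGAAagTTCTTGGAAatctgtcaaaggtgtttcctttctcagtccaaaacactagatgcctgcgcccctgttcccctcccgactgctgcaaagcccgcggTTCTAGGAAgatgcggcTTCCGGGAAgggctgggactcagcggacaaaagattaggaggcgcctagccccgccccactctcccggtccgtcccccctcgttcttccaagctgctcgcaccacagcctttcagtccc
The window holds 4 matches. Of 33469 rat promoters of the same length 7.67% hold at least 1, and 2 promoters, Cish included, hold 4 or more. Among the 27 axis genes with a RefSeq promoter at hand, a match was held by 3, namely Cish, Prlr and Socs1. A match describes the letters and is not a measured binding site.

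In the hippocampus Cish was dim, detected on 2 of 4 GH arrays and 1 of 4 saline arrays. It read 6.10, 6.11, 6.11 and 6.11 in GH rats and 6.11, 6.09, 6.08 and 6.09 in saline rats, a difference of 0.015 (SE 0.0097, limma adjusted p = 1). The groups overlapped at saline replicate 1, and at this level the probe could show only a large difference. Socs2, which dampens GHR signalling, read 6.16, 6.14, 6.12 and 6.11 in GH rats and 6.16, 6.13, 6.11 and 6.12 in saline rats, and its difference was -0.0023 (SE 0.018, adjusted p = 1). Each group spanned nearly the same values. Once slide position entered the model as a covariate, the Socs2 difference was 0.0317.

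Among receptors, Igf1r was clearly measured, and read 7.03, 6.91, 6.73 and 6.89 in GH rats against 6.81, 6.83, 6.98 and 6.98 in saline rats. The groups interleaved, and the difference was -0.015 (SE 0.059, 95% confidence interval -0.138 to 0.108), or 0.0189 with median scaling. Igf2r, the receptor that clears IGF-2, read 9.35, 9.12, 9.36 and 9.34 in GH rats against 9.32, 9.27, 9.44 and 9.42 in saline rats, a difference of -0.072 (SE 0.051). GH replicate 2 was the low array here, and without it the difference was -0.0151. Ghr, the receptor of the hormone itself, Insr, the insulin receptor, and Ghrhr were detected on 0 of the 8 arrays, and so their levels in this tissue were not measured by these probes.

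Of the signalling genes downstream, Jak2 read 7.45, 7.51, 7.56 and 7.46 in GH rats against 7.66, 7.60, 7.50 and 7.56 in saline rats, a difference of -0.085 (SE 0.057, adjusted p = 1). The groups overlapped only between 7.50 and 7.56. Stat3 differed by 0.0089 (SE 0.042), and the dim probes of Stat5a and Stat5b by 0.015 (SE 0.014) and -0.0071 (SE 0.015). The adaptor genes Irs1 and Shc1 were near background on all 8 arrays, with differences of 0.000124 (SE 0.0113) and -0.00905 (SE 0.0176), which were -0.000169 for Irs1 with median scaling and 0.00697 for Shc1 with slide position as a covariate, and Irs2, Grb10, Socs1 and Socs3 were detected on none.

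The ligands and carriers of the axis included 2 axis genes with a difference above 0.5, Igf2 and Igfbp2. Igf2, a growth factor made in the brain chiefly by the meninges and choroid plexus, read 11.17, 10.47, 10.81 and 11.60 in GH rats against 10.07, 10.17, 10.50 and 10.61 in saline rats. Replicates 4, 1 and 3 of the GH group were above every saline array, while GH replicate 2 lay below saline replicates 3 and 4. The difference was 0.68 (SE 0.37, 95% confidence interval -0.092 to 1.44, adjusted p = 1). Igfbp2, an IGF-2 binding protein of the same tissues, followed the same arrays, with 8.85, 8.09, 8.43 and 9.18 in GH rats against 7.96, 7.90, 8.15 and 8.41 in saline rats, a difference of 0.54 (SE 0.39). Without GH replicate 4 the Igf2 difference was 0.479 and that of Igfbp2 0.354. Igfbp7 differed by 0.068 (SE 0.066) and the dim Igfbp3 by 0.033 (SE 0.028). Igfbp6 differed by 0.0017 (SE 0.065), with a confidence interval of -0.134 to 0.137. The dim Igfbp1 differed by -0.00473 (SE 0.0152). Pappa, a protease that frees IGF-1 from its binding proteins, lay near background, at 6.14 in GH rats and 6.16 in saline rats, and differed by -0.023 (SE 0.015). Igfbp4, Igfbp5 and Igfals were detected on 0 of the 8 arrays.

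**Figure D2:**
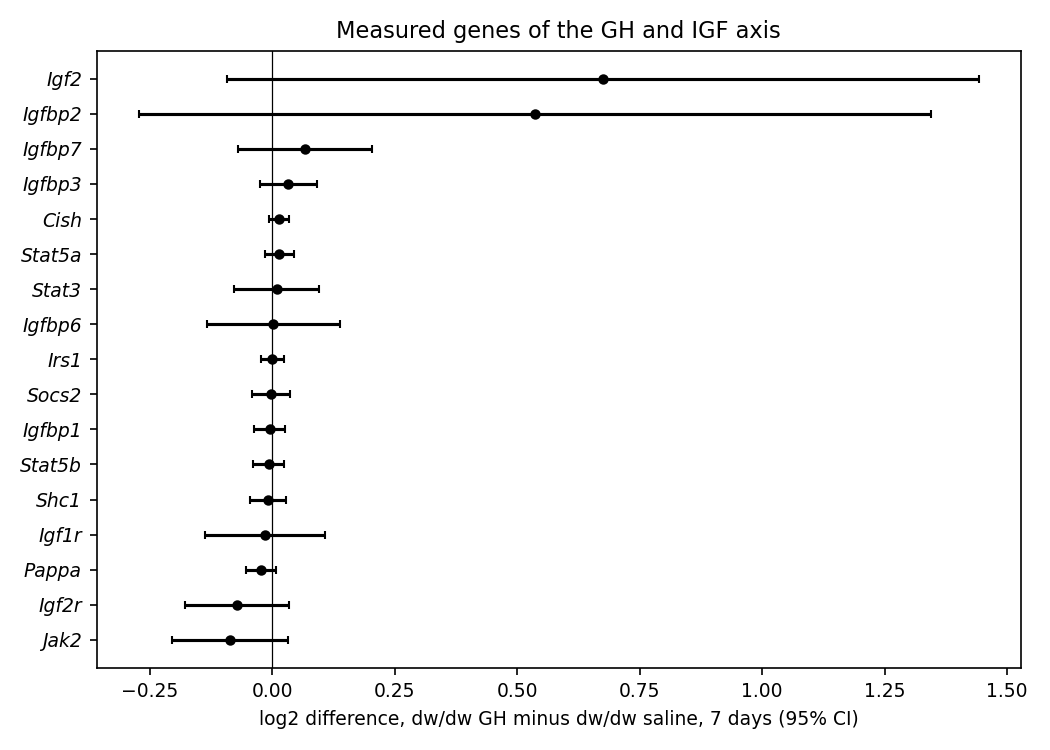
Points are the log2 differences (dw/dw GH minus dw/dw saline, 7 days, 4 arrays each) of the measured GH and IGF axis genes and bars their 95% confidence intervals. Every interval spans 0, and those of Igf2 and Igfbp2 are the widest.

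Downstream of the IGF-1 receptor, 20 genes of PI3K, AKT and mTOR signalling were tested, 6 with a difference above 0 against 48.5% of all named genes. The median was -0.0261, 0 genes were higher at an unadjusted p under 0.05 (1.97% of named genes) and 2 were lower (2.96%). These were Tti1, a scaffold that helps kinases of the mTOR family to mature, and Mlst8, a subunit of the mTOR complexes. Tti1 read 8.36, 8.19, 8.20 and 8.06 in GH rats against 8.35, 8.48, 8.45 and 8.42 in saline rats. Only GH replicate 1 and saline replicate 1 crossed. The difference was -0.22 (SE 0.051, adjusted p = 0.641). Mlst8 differed by -0.072 (SE 0.032, adjusted p = 1). With median scaling the median of this list was -0.00301.

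The 15 named genes with the smallest p on each side have mixed roles. All 4 GH arrays lay above all 4 saline arrays for 11 of the 15 higher genes, against 1.5% of all named genes, and below for 10 of the 15 lower genes, against 1.74%. Since these genes were picked for their p, that separation is a description of the choice.

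Sh3kbp1, an adaptor that takes part in the endocytosis of receptor tyrosine kinases, had the smallest p of any named gene. It read 8.73, 8.73, 8.63 and 8.71 in GH rats against 8.47, 8.46, 8.44 and 8.57 in saline rats. The lowest GH array stood above the highest saline array. The difference was 0.21 (SE 0.043, adjusted p = 0.347), a fold of 1.16. Socs5, a member of the SOCS family that dampens cytokine and growth factor receptors, read 9.26, 9.37, 9.19 and 9.44 in GH rats against 9.17, 9.10, 9.11 and 9.15 in saline rats, a difference of 0.18 (SE 0.057, adjusted p = 1). The groups did not overlap, with a gap between GH replicate 3 and saline replicate 1 that was small beside the spread of the GH rats. Rgs12, which turns off G protein signalling, was on the lower side, at 7.93, 7.85, 7.84 and 7.77 in GH rats against 7.93, 8.04, 8.06 and 8.11 in saline rats, a difference of -0.19 (SE 0.052, adjusted p = 0.906). GH replicate 1 met saline replicate 1, and the other arrays were apart.

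Several genes act in transcription or RNA processing. Rfx7, a transcription factor with a winged-helix domain, read 8.29, 8.43, 8.24 and 8.25 in GH rats against 8.16, 8.11, 7.98 and 7.86 in saline rats, without overlap. The difference was 0.28 (SE 0.065, adjusted p = 0.641). Tnrc6b, a scaffold of microRNA-guided silencing, was dim and differed by 0.077 (SE 0.021, adjusted p = 0.891). Srek1ip1, a partner of a splicing regulator, read 8.07, 8.07, 8.15 and 8.0 in GH rats against 8.29, 8.27, 8.37 and 8.18 in saline rats. Here too all GH arrays were the lower ones, and the difference was -0.205 (SE 0.046, adjusted p = 0.582). Taf1a, part of the initiation factor for RNA polymerase I, lay near background and differed by -0.048 (SE 0.013, adjusted p = 0.883).

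Genes of translation and mitochondria stood on both sides. Tufm, the elongation factor of mitochondrial translation, read 8.83, 8.88, 8.94 and 9.12 in GH rats against 8.68, 8.74, 8.71 and 8.79 in saline rats, again without overlap, and differed by 0.21 (SE 0.0601, adjusted p = 0.906). Rpl39 of the large ribosomal subunit differed by 0.18 (SE 0.049), Sfxn4 of the mitochondrial inner membrane by 0.11 (SE 0.031) and the translation regulator Bzw2 by 0.22 (SE 0.068). Against these, Atp5f1a, the alpha subunit of ATP synthase, read 12.68, 12.45, 12.53 and 12.61 in GH rats against 12.74, 12.65, 12.74 and 12.73 in saline rats, a difference of -0.15 (SE 0.043, adjusted p = 0.935). GH replicate 1 overlapped with the low saline array, replicate 2. Atpsckmt, a methyltransferase of the ATP synthase c subunit, differed by -0.104 (SE 0.0297, adjusted p = 0.906). The lists these genes sit near did not lean the same way as single members: of 42 oxidative phosphorylation genes tested 26 had a difference above 0, with a median of 0.0101, and of 58 cytosolic ribosomal protein genes 29 did, with a median of 0.00202. At an unadjusted p under 0.05 there were 2 higher and 1 lower oxidative phosphorylation genes, and 2 higher and 0 lower ribosomal ones, beside 1.97% higher and 2.96% lower of all named genes. With median scaling these medians were 0.0801 and 0.0706, and with slide position as a covariate both were below 0, at -0.00956 and -0.0594. Without saline replicate 1 the ribosomal median was -0.0229.

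Of enzymes that act on lipids, Alox15 and Dhcr7 were on the higher side, with their GH arrays in unlike orders. Alox15, a lipoxygenase that oxidises arachidonic acid, read 6.41, 6.20, 6.20 and 6.29 in GH rats against 6.16, 6.11, 6.12 and 6.13 in saline rats, a difference of 0.14 (SE 0.032, adjusted p = 0.582). The dim probe was detected on 12 of the 24 arrays in all, and the groups did not overlap. The GH arrays of Alox15 ran from high to low as replicates 1, 4, 3 and 2, with replicates 3 and 2 nearly equal. That was the order of the 3 globin genes below, and saline replicate 2 was the lowest array, as in those genes. Dhcr7, a reductase of sterol synthesis, read 8.35, 8.45, 8.42 and 8.50 in GH rats against 8.23, 8.32, 8.32 and 8.14 in saline rats, without overlap, a difference of 0.18 (SE 0.045, adjusted p = 0.881). For Dhcr7 GH replicate 4 was the highest array and GH replicate 1 the lowest GH array. The list Dhcr7 belongs to leaned the same way: of 19 cholesterol synthesis genes tested, 17 had a difference above 0, beside 48.5% of all named genes. Their median was 0.0592, beside -0.00123 over all named genes. Genes of 1 pathway can move together on an array, so they are not separate observations. Of the 19, 2 had an unadjusted p under 0.05 and a higher value, Dhcr7 and Mvd, and 0 had a lower one, beside 1.97% higher and 2.96% lower of all named genes. Mvd, a decarboxylase that supplies isoprenoid units, read 8.26, 8.48, 8.33 and 8.58 in GH rats against 8.36, 8.29, 8.31 and 8.17 in saline rats. The separation came from GH replicates 2 and 4, and the difference was 0.13 (SE 0.055, adjusted p = 1). GH replicates 2 and 4 also had the highest scores of the whole list, 0.0757 and 0.0748, while GH replicates 1 and 3 were at -0.0089 and -0.0195 and the saline arrays between -0.0862 and 0.031. Without GH replicate 2 the median of the list was 0.0299 and without saline replicate 2 it was 0.0934. After 30 days the list median was 0.00243, with 10 of 19 above 0.

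Mx1, an interferon-induced GTPase that blocks viruses, had one of the wider spreads among the smallest p. It read 7.54, 7.60, 7.40 and 7.63 in GH rats against 7.10, 6.82, 6.86 and 7.54 in saline rats. Saline replicate 4 stood with the GH arrays and the other 3 saline arrays well below them. The difference was 0.46 (SE 0.12, adjusted p = 0.881), and without saline replicate 4 it was 0.618 with an adjusted p of 0.0179, the 1 call that leaving out any single array gave. Mx1 averaged 7.54 ± 0.10 in GH rats, 7.08 ± 0.33 in saline rats and 7.65 ± 0.14 in the HZ rats of the same age (SD, n = 4 each). Since Mx1 was picked by a p that uses these saline values, the place of the HZ mean is a description. The interferon and MHC class I list did not follow Mx1: 6 of its 12 tested genes had a difference above 0, and the median was -0.00572 (0.0522 with slide position as a covariate). Mx1 was the 1 gene of the list with an unadjusted p under 0.05, beside 4.92% of all named genes. On the lower side among immune genes, Tapbpl, which edits the peptides on MHC class I, was dim and differed by -0.0999 (SE 0.0267, adjusted p = 0.891). Ifi27, an interferon-inducible gene, read 8.44, 8.47, 8.58 and 8.25 in GH rats against 8.74, 8.73, 8.79 and 8.71 in saline rats. All GH arrays were lower, and the difference was -0.305 (SE 0.103, adjusted p = 1).

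Several named genes on the lower side code for structural or secreted proteins. Actb, cytoplasmic actin, read 12.56, 12.47, 12.55 and 12.44 in GH rats against 12.61, 12.64, 12.65 and 12.62 in saline rats, a difference of -0.12 (SE 0.034, adjusted p = 0.906). The saline rats were tightly grouped above all GH rats. Klk8, a secreted serine protease of hippocampal neurons that takes part in synaptic plasticity, read 6.94, 6.80, 6.94 and 6.76 in GH rats against 6.96, 7.21, 7.32 and 7.15 in saline rats. Saline replicate 1 lay just above the GH rats and the other 3 clear of them, and the difference was -0.303 (SE 0.0785, adjusted p = 0.883). Ift27, a GTPase of transport in cilia, differed by -0.16 (SE 0.045) and Xpnpep1, an aminopeptidase, by -0.31 (SE 0.089), with adjusted p of 0.906 and 0.943. Slc39a3, a zinc importer, differed by -0.16 (SE 0.045), and Emc3, which inserts proteins in the endoplasmic reticulum membrane, by -0.092 (SE 0.025), with adjusted p of 0.906 and 0.891. Add3, an adducin that links actin to spectrin, read 7.55, 6.97, 7.14 and 7.07 in GH rats against 8.02, 7.63, 7.64 and 7.61 in saline rats. The groups did not overlap, though GH replicate 1 came close to the saline rats, and the difference was -0.543 (SE 0.235, adjusted p = 1). Among other large differences, the synuclein gene Sncg was at 0.568 (SE 0.308), Birc6, an inhibitor of apoptosis, at -0.481 (SE 0.237) and Mfhas1 at -0.302 (SE 0.178), each with overlapping groups and an adjusted p of 1. Smaller ones with a small p were Tmem276 at 0.0776 (SE 0.0208), Enkd1, a protein of microtubules, at -0.0932 (SE 0.0224) and Tmem106c at -0.171 (SE 0.0504), with adjusted p of 0.891, 0.718 and 0.959 and no overlap of the groups. Tmem276 was dim, at 6.38 in GH rats and 6.31 in saline rats, and so was Enkd1, at 6.37 and 6.46. Differences of dim probes are drawn towards 0.

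**Figure D3:**
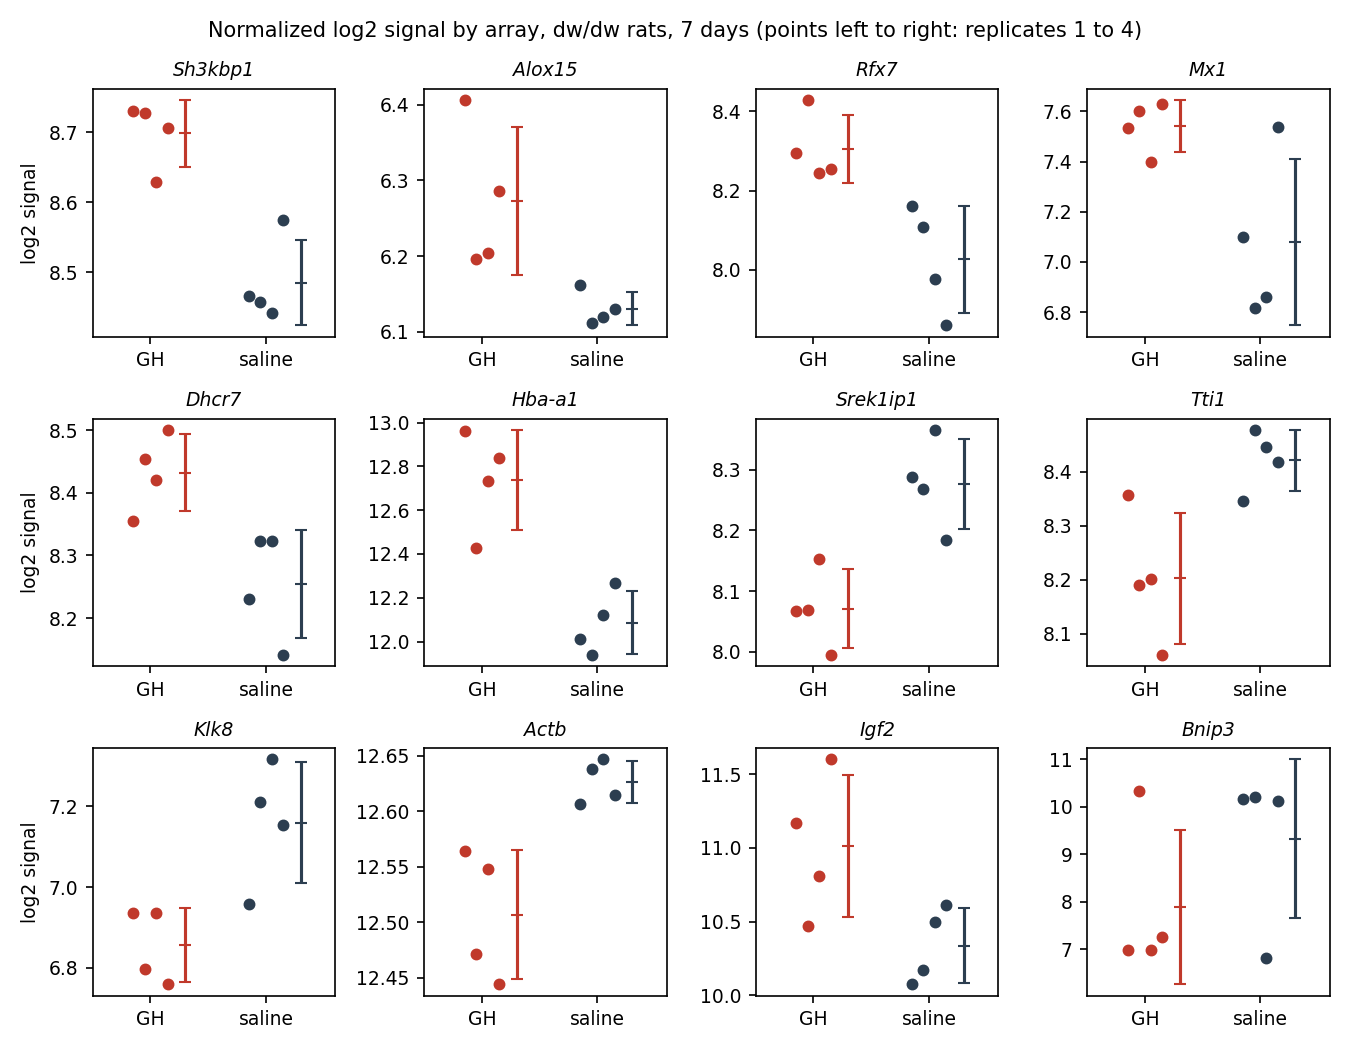
Points are the normalized log2 signals of 12 genes on each array, dw/dw GH rats at the left and dw/dw saline rats at the right of each panel, with replicates 1 to 4 from left to right and the group mean ± SD beside them. For Sh3kbp1, Rfx7, Hba-a1 and Srek1ip1 the groups do not overlap, for Mx1 saline replicate 4 stands among the GH arrays, and Bnip3 has 2 separate levels within each group.

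Globin transcripts had the largest differences among all tested probes in which the 4 GH arrays stood apart from the 4 saline arrays. Globins are the chains of haemoglobin, made in red cells and their precursors, and red cells keep globin mRNA for a while after leaving the marrow. The 250 bases before the starts of the 3 measured globin genes are printed from RefSeq (GRCr8). These genes put the GH arrays in the same order, and whether their promoters have a part in that was not tested. Capitals mark 3 motifs searched on both strands, core letters of boxes known from globin promoters. The first is CCAAT. The second, bound by factors of the KLF family, is CACCC. The third, a form of the TATA box, is ATAAA. The matches do not overlap one another.
Hba-a1, chr10:15842581-15842830, minus strand: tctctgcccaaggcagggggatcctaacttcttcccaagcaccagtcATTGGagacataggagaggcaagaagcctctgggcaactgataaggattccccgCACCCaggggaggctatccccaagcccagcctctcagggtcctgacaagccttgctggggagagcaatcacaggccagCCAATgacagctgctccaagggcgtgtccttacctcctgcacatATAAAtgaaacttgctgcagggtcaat
Hbb, chr1:167663722-167663971, minus strand: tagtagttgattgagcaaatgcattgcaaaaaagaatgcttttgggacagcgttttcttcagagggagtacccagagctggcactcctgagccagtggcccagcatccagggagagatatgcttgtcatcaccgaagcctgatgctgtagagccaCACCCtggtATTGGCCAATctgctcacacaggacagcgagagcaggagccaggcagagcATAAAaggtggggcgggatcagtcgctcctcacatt
Hbb-b1, chr1:167643521-167643770, minus strand: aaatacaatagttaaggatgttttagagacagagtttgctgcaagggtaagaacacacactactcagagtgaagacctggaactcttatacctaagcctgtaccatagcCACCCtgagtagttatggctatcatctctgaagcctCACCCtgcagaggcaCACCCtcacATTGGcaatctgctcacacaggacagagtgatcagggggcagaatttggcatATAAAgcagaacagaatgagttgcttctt
Each window holds all 3 motifs, which were chosen because they are known from globin promoters. Among 33469 promoters of that length CCAAT occurs in 34%, CACCC in 49.2% and ATAAA in 39.3%. The ATAAA match begins at position -27 from the start in Hba-a1, -36 in Hbb and -29 in Hbb-b1. As for Cish, a match describes the letters and is not a measured binding site.

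Hba-a1, an alpha chain gene, read 12.96, 12.43, 12.73 and 12.84 in GH rats against 12.01, 11.94, 12.12 and 12.27 in saline rats. The highest saline array was below the lowest GH array. The difference was 0.65 (SE 0.19, 95% confidence interval 0.264 to 1.04, adjusted p = 0.906), a fold of 1.57. Hbb-b1, a beta chain gene, read 11.94, 11.35, 11.64 and 11.69 in GH rats against 11.01, 10.88, 11.06 and 11.06 in saline rats, a difference of 0.65 (SE 0.19, adjusted p = 0.906). Hbb, the other beta chain gene measured, read 13.19, 12.78, 12.95 and 13.02 in GH rats against 12.41, 12.30, 12.43 and 12.49 in saline rats, a difference of 0.58 (SE 0.198, adjusted p = 1). In all 3 genes GH replicate 1 was the highest array and GH replicate 2 the lowest GH array, and saline replicate 2 was the lowest of all. The same held for Alox15, given above. Lgals5, a galectin of rat reticulocytes, was dim and read 6.35, 6.27, 6.29 and 6.29 in GH rats against 6.20, 6.15, 6.22 and 6.21 in saline rats, a difference of 0.104 (SE 0.0325, adjusted p = 1), also without overlap.

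The other measured genes of the red blood cell list were near background, where differences are drawn towards 0. Of 10 genes listed 7 had a named probe and 5 were tested. Besides the 3 globins these were Slc4a1, the anion exchanger of the red cell membrane, at 6.12 ± 0.02 in GH rats and 6.12 ± 0.01 in saline rats (SD, n = 4 each) and a difference of -0.00071 (SE 0.012), and Epb42, a membrane skeleton protein, at 6.10 ± 0.01 in GH rats and 6.11 ± 0.01 in saline rats (SD, n = 4 each) and a difference of -0.011 (SE 0.011). At that level the 2 probes could show only a large difference. Alas2, the erythroid enzyme of haem synthesis, and Hba-a2 were detected on 0 of the 8 arrays. Over the 5 tested genes the median difference was 0.579, 3 had an unadjusted p under 0.05 (1.97% of named genes on the higher side) and the list score was 0.338, 0.0189, 0.169 and 0.224 on the GH arrays against -0.204, -0.262, -0.166 and -0.118 on the saline arrays. Hba-a1 and Hba-a2 are near copies, with 241 of 250 promoter bases identical, so a probe named for one may read the other. Whether the Hbb and Hbb-b1 probes read one another's transcripts was not tested. In whole tissue RNA, more cells of a type and more RNA per cell cannot be told apart in these globin values. Hba-a1 averaged 12.74 ± 0.23 in GH rats, 12.09 ± 0.14 in saline rats and 12.43 ± 0.37 in HZ rats of the same age (SD, n = 4 each). As for Mx1, the saline values entered the choice of the gene, so the place of the HZ mean is a description.

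Other vascular and border tissues were described by their markers. All 7 endothelial and pericyte markers tested had a difference above 0, beside 48.5% of all named genes, and 0 had an unadjusted p under 0.05, beside 4.92%. Their median was 0.0268, or 0.125 with the series matrix values and 0.0922 over the 5 detected on all 8 arrays. All 15 meningeal and fibroblast markers had a difference above 0 too, with a median of 0.0476 and again 0 at an unadjusted p under 0.05. For 2 of the 15 all 4 GH arrays lay above all 4 saline arrays, beside 1.5% of named genes. Markers of 1 tissue can move together on an array, so they are not separate observations. Col1a2, a chain of type I collagen, read 9.93, 9.21, 9.65 and 10.36 in GH rats against 9.28, 8.75, 9.32 and 9.48 in saline rats, a difference of 0.581 (SE 0.39, adjusted p = 1). The order of the GH arrays, replicate 4 then 1, 3 and 2, was that of Igf2 and Igfbp2. The meningeal list score was 0.114, -0.0786, -0.0174 and 0.23 on the GH arrays and -0.102, -0.0856, -0.0734 and 0.012 on the saline arrays, so 2 GH arrays carried the high values and the groups overlapped. Without GH replicate 4 the median of the list was 0.0315, and without GH replicate 3 it was 0.0928. The series matrix values put it at 0.325. Col1a2 and Igfbp6 are themselves on this list, so its score holds their values. The score was highest on the same 2 GH arrays as Igf2 and Igfbp2, and its part in them was not tested.

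Choroid plexus markers were mostly below detection. Of 13 listed, 4 were tested, and Kl, Aqp1, Folr1, Clic6 and Kcne2, which define that epithelium, were detected on 0 of the 8 arrays. The 4 tested genes, Igf2, Ttr and the near-background Sostdc1 and Otx2, all had a difference above 0, with 0 at an unadjusted p under 0.05. Their median of 0.304 lies between the large values of Igf2 and Ttr and the small ones of the other two. It was 0.107 without saline replicate 3, 0.629 over probes detected on all 8 arrays, 0.631 with the 8 arrays alone and 0.704 with the series matrix values. Ttr, transthyretin, the thyroid hormone carrier of choroid plexus, read 8.60, 7.99, 8.41 and 8.0 in GH rats against 7.73, 8.59, 6.54 and 7.80 in saline rats. A single low array, saline replicate 3, set most of the difference of 0.58 (SE 0.66), which was 0.207 without it.

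Neuronal marker lists had medians near 0. Nts, Npy and Penk, 3 neuropeptide genes named for the size or p of their difference, were lower with overlapping groups. Of 8 pyramidal neuron markers tested 2 had a difference above 0, with a median of -0.0257 (-0.0827 with the series matrix values), and of 13 interneuron markers 7 did, with a median of 0.0158. The interneuron markers ran from -0.241, the value of Npy, to 0.211. Npy, the neuropeptide of a class of interneurons, read 8.93, 8.86, 8.86 and 8.85 in GH rats against 9.13, 9.36, 8.79 and 9.18 in saline rats, a difference of -0.24 (SE 0.094, adjusted p = 1). The GH rats hardly varied and the saline rats lay on both sides of them, with replicate 2 the highest. Penk, the enkephalin precursor, was at 7.07, 7.13, 7.15 and 7.20 in GH rats against 7.23, 7.60, 7.16 and 7.31 in saline rats. Saline replicate 2 was again the highest, saline replicate 3 lay within the GH range, and the difference was -0.19 (SE 0.073, adjusted p = 1). Without saline replicate 2 the differences were -0.160 for Npy and -0.0956 for Penk. Adora2a, an adenosine receptor abundant in striatum and on the list of neighbouring tissues like Penk, differed by -0.098 (SE 0.037, adjusted p = 1). That list of 9 tested genes had 3 differences above 0, a median of -0.0537 and 2 genes lower at an unadjusted p under 0.05, beside 2.96% of named genes. Without saline replicate 1 that median was -0.113 and without saline replicate 3 it was -0.00408. Nts, the neurotensin precursor, read 9.16, 8.80, 8.55 and 8.55 in GH rats against 9.26, 9.02, 9.02 and 9.12 in saline rats, with GH replicate 1 inside the saline range. The difference was -0.34 (SE 0.17, adjusted p = 1).

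Synaptic and plasticity lists were centred near 0. The median was 0.00672 over 21 synaptic vesicle and SNARE genes, -0.00025 over 9 ionotropic glutamate receptor genes, -0.0138 over 12 GABA receptor and synthesis genes and 0.00868 over 16 neurotrophin and plasticity genes. Single members reached an unadjusted p under 0.05, beside 1.97% higher and 2.96% lower of all named genes. Limk1, the kinase that inactivates cofilin and so steadies actin in dendritic spines, read 7.55, 7.67, 7.52 and 7.49 in GH rats against 7.26, 7.37, 7.36 and 7.36 in saline rats, without overlap, and differed by 0.22 (SE 0.091, adjusted p = 1). Napa, which recycles SNARE complexes, differed by -0.15 (SE 0.06), and the kainate receptor gene Grik1 by 0.077 (SE 0.0335), both with an adjusted p of 1. For Grik1 the difference was -0.00194 once slide position entered the model. Neurogenesis and proliferation genes had a median of -0.0032 over 19, or 0.017 with median scaling. Neurod1, a transcription factor of immature granule neurons, read 8.39, 8.30, 8.49 and 8.48 in GH rats against 8.61, 8.52, 8.64 and 8.48 in saline rats. Only saline replicate 4 reached the GH range, and the difference was -0.15 (SE 0.063, adjusted p = 1).

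Hormone-responsive and metabolic lists gave a few more members at an unadjusted p under 0.05. Of all named genes 1.97% were higher and 2.96% lower at that level. Of 11 glucocorticoid genes tested (median -0.016, or 0.022 with median scaling) 1, the metallothionein gene Mt1, was lower, at -0.19 (SE 0.087), and of 12 thyroid hormone genes (median -0.0145, or 0.0131 with median scaling) 1, the thyroxine transporter gene Slco1c1, was higher, at 0.16 (SE 0.071) and without overlap. Notch1 differed by 0.12 (SE 0.042) and was the 1 of 12 VEGF and angiogenesis genes (median 0.0162) at an unadjusted p under 0.05. Of 26 glycolysis and citrate cycle genes 18 had a difference above 0, with a median of 0.0322, and the dim Idh3a was the 1 at that level. This median was 0.0726 with median scaling, -0.00879 with slide position as a covariate, 0.0108 without GH replicate 1 and 0.0486 without GH replicate 3. Ndufa2 and Uqcrfs1 of the respiratory chain differed by 0.13 (SE 0.053) and 0.102 (SE 0.0471), Rps12 of the small ribosomal subunit by 0.23 (SE 0.08) and Calu, a calcium-binding protein of the endoplasmic reticulum, by 0.13 (SE 0.045). Each of these 8 genes had a limma adjusted p of 1. Immediate early genes, which follow neuronal firing, had 8 of 12 differences above 0 and a median of 0.0358, with 0 at an unadjusted p under 0.05. The median was 0.159 with slide position as a covariate and 0.00274 without saline replicate 3. Glial lists lay close to 0, with medians of 0.0163 over 9 astrocyte, 0.00369 over 14 oligodendrocyte, 0.0071 over 3 precursor and -0.00499 over 12 microglial markers. Leaving out single arrays gave medians between -0.0328 and 0.0403 for astrocytes and between -0.064 and 0.0458 for oligodendrocytes. The medians were 0.00174 over 4 dentate granule cell markers, -0.0207 over 2 leukocyte markers and -0.00517 over 23 heat shock and unfolded protein genes, the last at 0.0442 with median scaling.

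**Figure D4:**
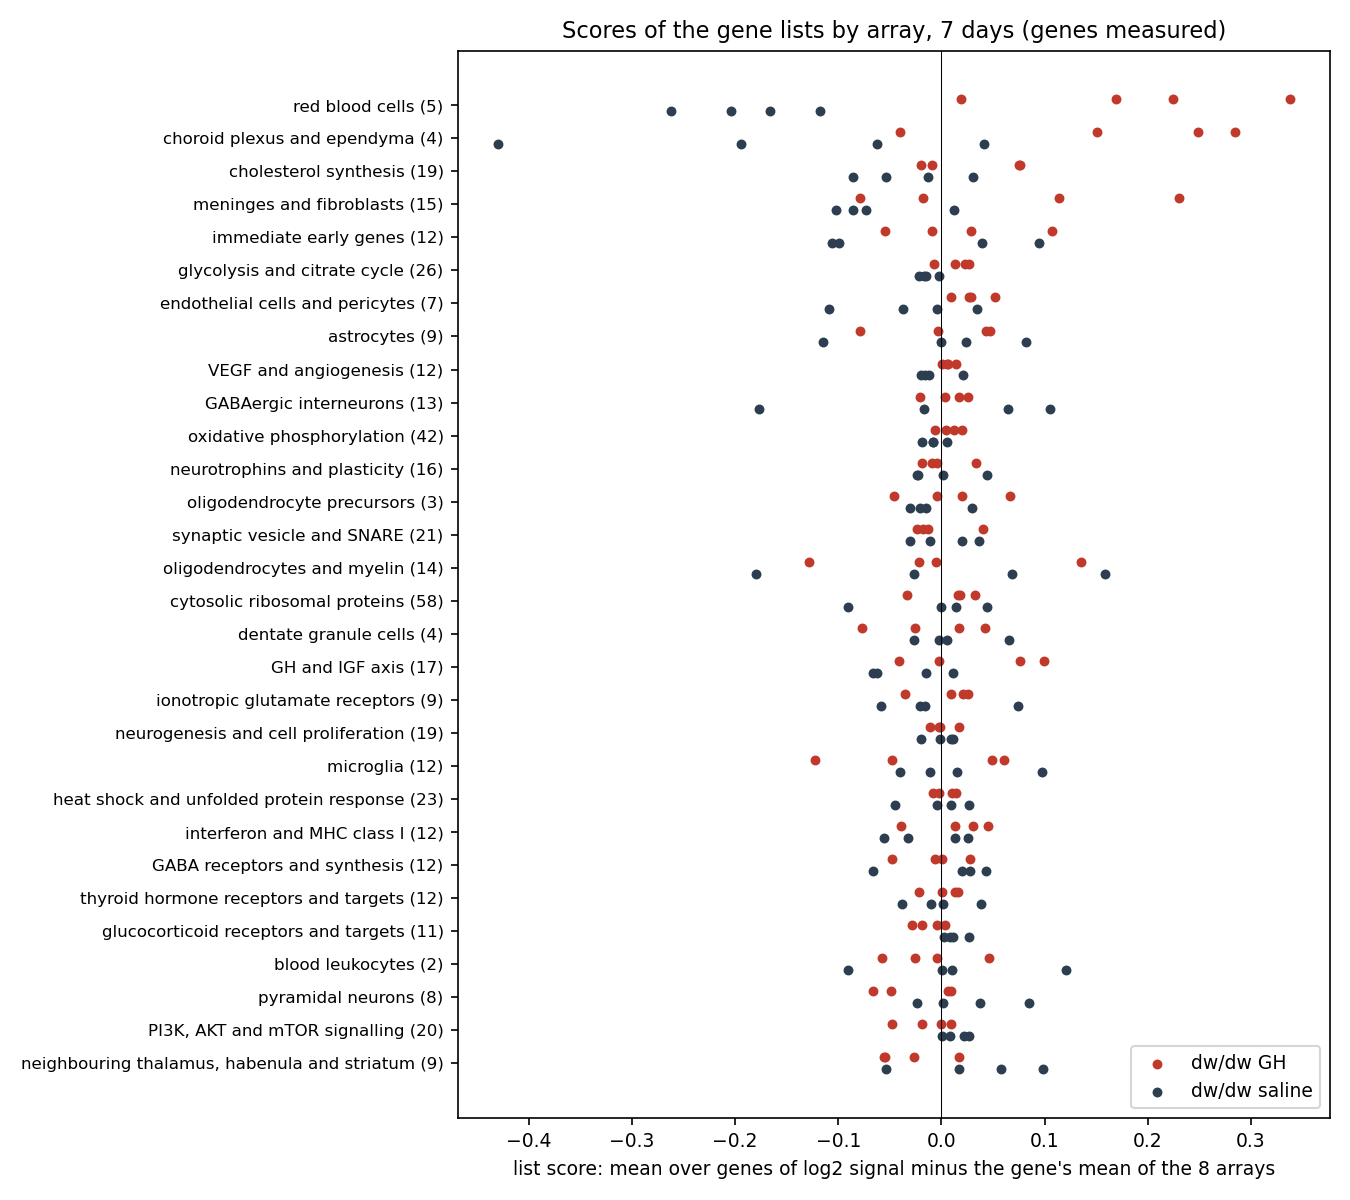
Each point is the score of a gene list on 1 array, dw/dw GH rats in red above dw/dw saline rats in dark blue, where the score is the mean over the list's tested genes of the log2 signal minus the gene's mean over the 8 arrays. The number of genes tested stands beside each list, and lists run from the highest median difference at the top to the lowest at the bottom. Red blood cell scores are separate between the groups, from 0.0189 to 0.338 in GH rats and from -0.262 to -0.118 in saline rats.

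Because 4 other GH rats and 4 other saline rats were treated for 30 days and share no array with the 7-day rats, each 7-day difference could be set beside its own repeat at an older age. Over the 7983 named genes 45.7% had the same sign at both durations, and the Pearson correlation of the 2 differences across genes was -0.0792 (Spearman -0.125), where genes share their arrays and are not independent. Of the 15 higher genes 10 were above 0 at 30 days as well, and of the 15 lower genes 2 were below 0. With an unadjusted p under 0.05 at 30 days there were 3 genes of the same sign, Hba-a1, Hbb-b1 and Sfxn4, and 4 of the opposite sign, Rfx7, Bzw2, Tti1 and Tmem106c, against 3.55% of all named genes and 3.36% of all tested probes at that level in either direction.

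The globin differences were of like size at both durations. At 30 days Hba-a1 averaged 11.53 ± 0.17 in GH rats and 10.96 ± 0.44 in saline rats (SD, n = 4 each), a difference of 0.56 (SE 0.19, adjusted p = 1), and the 7-day difference exceeded this by 0.09 (SE 0.26, adjusted p = 0.986). Hbb-b1 differed by 0.53 (SE 0.19) and Hbb by 0.47 (SE 0.198) at 30 days. Igf2 differed by 0.397 (SE 0.367) at 30 days and Col1a2 by 0.402 (SE 0.39). Rfx7 had the opposite sign, at 8.03 ± 0.08 in GH rats and 8.20 ± 0.08 in saline rats (SD, n = 4 each) after 30 days, a difference of -0.165 (SE 0.065). The 7-day minus 30-day contrast was 0.44 for Rfx7 (SE 0.092, adjusted p = 0.462) and -0.34 for Tti1 (SE 0.072, adjusted p = 0.462). Nts had 0.42 (SE 0.17) at 30 days against its -0.34 at 7 days, a contrast of -0.76 (SE 0.24, adjusted p = 0.873). Sh3kbp1, with the smallest p at 7 days, differed by 0.014 (SE 0.043) at 30 days, a contrast of 0.20 (SE 0.061, adjusted p = 0.873). For the 7-day minus 30-day contrast limma called 0 probes, with 592 (5.15%) at an unadjusted p under 0.05, and 5.47% of the named genes were at that level. Of the 30 genes picked by their 7-day p, 22 were at that level. The contrast reuses the 7-day values they were picked by, so that count is a description of the choice. The 2 durations lay on separate slides and differ in age, so duration, age and slide cannot be told apart.

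**Figure D5:**
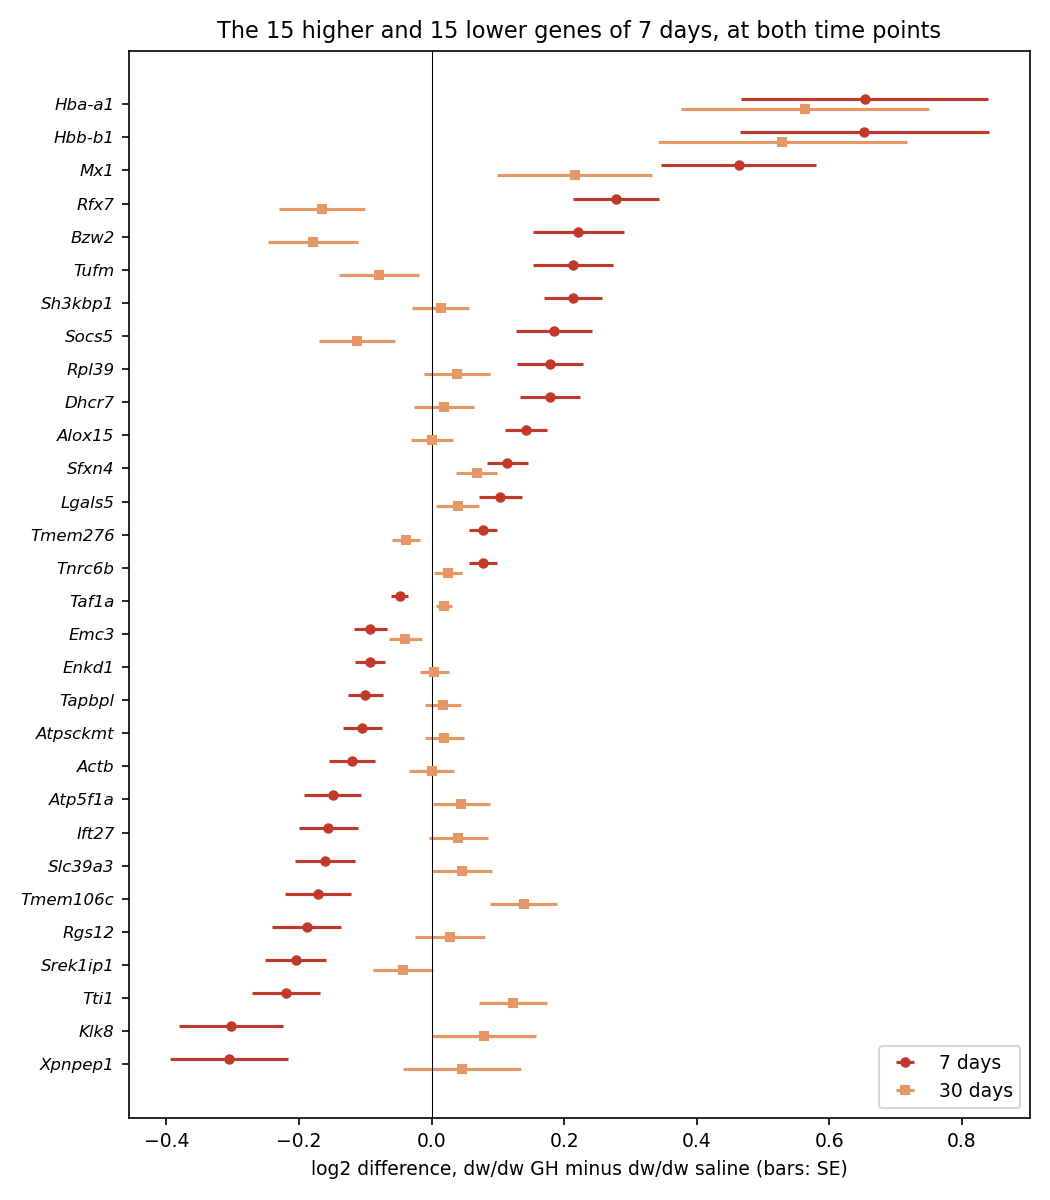
Points are log2 differences (dw/dw GH minus dw/dw saline) at 7 days (red circles) and 30 days (orange squares) of the 15 higher and 15 lower named genes with the smallest p at 7 days, and bars are SE from the limma fit. The 2 globin genes lie near 0.6 at both durations, and most lower genes lie near or above 0 at 30 days.

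Probes without a gene name reached values like those of the named ones. The smallest p of all 11487 belonged to the unnamed probe ILMN_64758, which read 7.15, 7.06, 7.04 and 7.15 in GH rats against 7.29, 7.22, 7.42 and 7.34 in saline rats, a difference of -0.218 (SE 0.0425, adjusted p = 0.347). ILMN_52447 differed by -0.24 (SE 0.049, adjusted p = 0.347), and its groups did not overlap either. On the higher side ILMN_61713 read 7.75, 6.98, 7.32 and 7.25 in GH rats against 6.74, 6.68, 6.81 and 6.81 in saline rats, a difference of 0.56 (SE 0.14, adjusted p = 0.822). As in the globins, GH replicate 1 was its highest array and GH replicate 2 its lowest GH array. ILMN_48467 differed by 0.11 (SE 0.03, adjusted p = 0.883).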

How the data were processed

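The 8 arrays compared were taken by title from 24 Illumina arrays of rat hippocampal RNA. The deposited scanner table holds, per the file headers, an average signal intensity and a detection p-value per probe and array. The submitters' processing notes name GenomeStudio 2010.2. The authors' series matrix, a second table of deposited intensity values whose normalization is not given in the sources used here, served as an alternative only.

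The signal intensities were corrected by normexp from the detection p-values (offset 16), quantile normalized over 24 arrays and put on a log2 scale with neqc (limma 3.58.1, R 4.3.3, jsonlite 2.0.0), the deposited values themselves not being on a log2 scale. Probes detected at p under 0.05 on at least 4 arrays were tested (11487, or 51.7%). A limma model of 6 group means (18 residual degrees of freedom, eBayes prior 1.55) gave two-sided tests adjusted by Benjamini-Hochberg. The fit was run on simulated data with independent noise for each probe and known differences added. Those data held no effects shared across an array, so the run checks the code and not the absence of calls here. Of the 22226 probes 13192 had 1 gene symbol and 9034 none, and 13151 of the named ones matched the RefSeq table of GRCr8 by gene ID. A gene with several tested probes was read from the brightest.

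Named genes were the 15 with the smallest p on each side, the 8 largest differences on each side among probes detected on all 8 arrays, all axis genes, up to 2 genes a side of each other list at an unadjusted p under 0.05, and the 2 unnamed probes with the smallest p on each side. Members and the 30 lists were chosen with earlier results of these data known. Same-numbered GH and saline arrays deviated together with correlations of -0.159, 0.203, 0.102 and 0.103, so the numbers were not taken as pairs. Alternatives were another offset, median scaling, other filters, the 12 arrays of the slide or the 8 arrays alone, array weights, intensity trend, position as a covariate, the series matrix, the replicate block and leaving out each array. Arrays have no read depth, and precision is limited by their number. Promoters came from RefSeq, cut to 250 bases before the start.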

Additional observations from a re-analysis of the deposited data

Results flagged for a closer look

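In each set of 4 arrays of the 78 named genes and 30 list scores, an array was picked out where its gap to the nearest other array was large against the whole range of the set. This happened in 11 of 216 sets (5.09%), about the 5% that chance gives. Bnip3, a mitochondrial protein induced by low oxygen, was picked out in both groups: GH replicate 2 read 10.32 where the other GH arrays read 6.98 to 7.26, and saline replicate 3 read 6.81 where the other saline arrays read 10.11 to 10.21. Among the GH arrays, Igf2r was low in replicate 2 (9.12, the others 9.34 to 9.36) and Tmem106c in replicate 4 (8.33, the others 8.44 to 8.47). Uqcrfs1 was high in GH replicate 4 (11.58, the others 11.46 to 11.48) and Npy in GH replicate 1 (8.93, the others 8.85 to 8.86). The synaptic vesicle and SNARE score was high in GH replicate 1, at 0.04 with the others between -0.0235 and -0.0133. Among the saline arrays, Add3 was high in replicate 1 (8.02, the others 7.61 to 7.64) and Limk1 low in the same array (7.26, the others 7.36). Birc6, an inhibitor of apoptosis, was low in saline replicate 3 (6.91, the others 7.67 to 7.79), and Atp5f1a in saline replicate 2 (12.65, the others 12.73 to 12.75).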

How the results depend on the processing

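Limma called 0 probes in the 11 alternatives that kept all 8 compared arrays, of which 1 fitted the 12 arrays of the slide and 1 the 8 arrays alone. Leaving out each of the 8 arrays in turn gave between 0 and 1, the 1 being Mx1 without saline replicate 4 (0.618, adjusted p = 0.0179). The 534 probes at an unadjusted p under 0.05 were 200 with median scaling (133 higher and 67 lower, 66.5% higher, against 41.6% otherwise), 1030 with no filter on dim probes, and 390 to 718 without single arrays. Same-numbered arrays were also fitted with the replicate number as a block: 0 probes were called, 604 had an unadjusted p under 0.05, and no call changed. Of the single arrays, GH replicate 1 correlated best with saline replicate 3 (0.292), not with its own number.

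Differences of the other sign came from median scaling for Igf1r (0.0189) and Irs1 (-0.000169), from array weights for Igfbp6 (-0.0353) and from position on the slide for Socs2 (0.0317), Shc1 (0.00697) and Grik1 (-0.00194). Without single arrays the ranges were -0.0627 to 0.0388 for Igf1r, -0.0142 to 0.00255 for Igfbp1, -0.0289 to 0.0418 for Igfbp6, -0.00755 to 0.00578 for Irs1, -0.0205 to 0.0017 for Shc1, -0.0116 to 0.0062 for Socs2 and -0.0298 to 0.0289 for Stat3. The cause was not tested. None of these differences was called in any alternative.

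List medians that moved by more than the spread of their scores did so as follows. With median scaling they were -0.00301 (PI3K, AKT and mTOR), 0.017 (neurogenesis), 0.022 (glucocorticoid), 0.0131 (thyroid), 0.0801 (oxidative phosphorylation), 0.0706 (ribosomal), 0.0442 (heat shock) and 0.0726 (glycolysis). With probes detected on all 8 arrays, which tests fewer genes, they were 0.0922 (endothelial) and 0.629 (choroid plexus), and with the 8 arrays alone 0.631 (choroid plexus). With position as a covariate they were 0.0522 (interferon), 0.159 (immediate early), 0.000383 (glucocorticoid), -0.00956 (oxidative phosphorylation), -0.0594 (ribosomal) and -0.00879 (glycolysis). With the series matrix values they were -0.0565 (PI3K, AKT and mTOR), 0.0776 (VEGF), -0.0827 (pyramidal), 0.125 (endothelial), 0.325 (meninges), 0.704 (choroid plexus) and -0.158 (leukocytes). Without single arrays the ranges were 0.107 to 0.349 (choroid plexus), -0.0468 to 0.0116 (glucocorticoid), 0.0108 to 0.0486 (glycolysis), -0.113 to -0.00408 (neighbouring tissues) and 0.00491 to 0.0218 (oxidative phosphorylation). The red blood cell median lay between 0.509 and 0.648 without single arrays. Dim probes near 6.1 give compressed differences, which limits what the Cish, Stat5, Irs1 and Pappa probes could show.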

Other observations

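Values at 2 separate levels within a group were searched for over all tested probes, after the values had been seen, as a gap of at least 1.5 on the log2 scale with at least 3 of the 24 arrays on each side. This found 2 probes, Bnip3 and the unnamed ILMN_52213. Both were low on the same 7 of 24 arrays: 3 of 4 GH and 1 of 4 saline arrays at 7 days, 1 HZ array at 7 days, 1 GH and 1 saline array at 30 days, and 0 HZ arrays at 30 days. Bnip3 read 6.98, 10.32, 6.98 and 7.26 in GH rats against 10.16, 10.21, 6.81 and 10.11 in saline rats, and ILMN_52213 read 6.03, 8.36, 6.04 and 6.04 in GH rats against 7.96, 8.28, 6.02 and 8.16 in saline rats. The gap between the levels was 2.55 for Bnip3 and 1.89 for ILMN_52213. The Bnip3 difference, GH minus saline, was -1.44 (SE 1.01, limma adjusted p = 1), the largest in size of any tested probe, and it was -2.27 without saline replicate 3 and -1.14 without GH replicate 1. What gives the 2 levels was not tested, so the values are those of the probe's signal.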
